A study of Rattus norvegicus with 12 samples.

Results

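The genes described here act in the uptake and transport of fatty acids. They were chosen by name, and each was looked up by its Entrez identifier in the deposited table of counts and given its symbol. Of 10 genes listed, 9 were found among the 16511 genes of the table, namely Lpl (24539), Gpihbp1 (300027), Angptl4 (362850), Cd36 (29184), Slc27a1 (94172), Slc27a4 (311839), Vldlr (25696), Fabp4 (79451) and Acsl1 (25288). Fabp5 was not analysed here.

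RNA was sequenced from 12 snap-frozen mammary glands of rats (Rattus norvegicus), all taken at PND21 (postnatal day 21). The HFB group holds 6 glands of offspring whose dams ate a diet high in butterfat from gestation day 1, and the CTL group 6 glands of offspring whose dams ate the control AIN diet. Each gland came from a separate litter. The methods of the study start the diets before breeding rather than at gestation day 1, and there, as in the labels, the control diet was fed after birth, although a label also names a later end of the diets. Libraries are named by diet and library number, HFB 1 to 6 and CTL 7 to 11 and 14. The labels mention no dissection and no bisphenol A. The methods of the study instead describe the deposited data as RNA of microdissected epithelium, for a comparison of the butterfat diet with and without bisphenol A. The 2 accounts thus differ in tissue and in groups, and the labels are followed here. Total counts lay between 2320267 and 2760871 in the HFB group (median 2660268) and between 2403464 and 2944680 in the CTL group (median 2537563.5). The detection floor, set at 3 counts in a library, was 1.02 to 1.29 CPM (counts scaled to a common library total), and it covers counting error only. Every library held adipocyte RNA, with markers that summed to 6739 CPM or more, while epithelial markers summed to 654 CPM or less, so the samples were not of epithelium alone.

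Fatty acids reach a tissue bound to albumin or inside triglyceride-rich lipoproteins. Lipoprotein lipase, made largely by adipocytes in fat and by the secretory epithelium in the lactating gland, is carried to the capillary wall and frees fatty acids from those particles. Transporters and binding proteins then bring the fatty acids into the cell, and acyl-CoA synthetases trap them for storage or oxidation.

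Several of the genes moved together or in opposite directions across libraries, so the stretch before the start site is shown for genes of each kind. Promoter sequences from RefSeq (GRCr8) were found for 6 of the 9 genes, and for 4 of them the 250 bases before the transcript start used there are printed 5′ to 3′ on the strand of the gene. That window lies directly before the annotated gene for Slc27a4, and inside the annotated gene for Cd36, Slc27a1 and Angptl4, as also for Vldlr and Acsl1, where the gene itself begins farther upstream. Capitals mark AGGTCA, the recognition letters of nuclear receptors such as the PPAR and RXR family, or TATAAA, each searched on both strands, so that TGACCT and TTTATA are the same letters read from the other strand. Cd36 and Slc27a4 differ in direction across libraries, Slc27a1 follows neither, and Angptl4 has a pattern of its own.
Cd36, chr4:18246332-18246581, plus strand: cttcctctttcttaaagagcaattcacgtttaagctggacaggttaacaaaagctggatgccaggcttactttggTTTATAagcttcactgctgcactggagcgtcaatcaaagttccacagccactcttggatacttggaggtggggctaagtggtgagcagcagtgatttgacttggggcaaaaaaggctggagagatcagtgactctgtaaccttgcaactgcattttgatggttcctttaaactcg
Slc27a4, chr3:33472653-33472902, plus strand: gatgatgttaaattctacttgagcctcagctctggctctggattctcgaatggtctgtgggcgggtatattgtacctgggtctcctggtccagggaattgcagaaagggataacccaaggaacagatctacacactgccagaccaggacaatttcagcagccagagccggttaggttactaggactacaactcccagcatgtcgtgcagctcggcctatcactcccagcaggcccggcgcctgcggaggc
Slc27a1, chr16:18312717-18312966, plus strand: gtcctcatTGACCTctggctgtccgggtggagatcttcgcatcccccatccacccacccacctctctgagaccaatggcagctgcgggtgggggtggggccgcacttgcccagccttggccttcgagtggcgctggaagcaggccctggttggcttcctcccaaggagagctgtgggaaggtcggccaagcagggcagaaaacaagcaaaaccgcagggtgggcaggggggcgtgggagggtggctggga
Angptl4, chr7:15258682-15258931, minus strand: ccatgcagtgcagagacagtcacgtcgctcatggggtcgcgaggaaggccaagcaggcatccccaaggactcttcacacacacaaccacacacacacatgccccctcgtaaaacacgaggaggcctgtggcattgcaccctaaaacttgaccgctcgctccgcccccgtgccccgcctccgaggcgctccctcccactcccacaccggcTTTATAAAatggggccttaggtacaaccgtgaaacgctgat
AGGTCA was found before Slc27a1 only, on the other strand and 242 bases before that start, and not before Cd36, Slc27a4, Angptl4, Vldlr or Acsl1. Of all 33469 promoters of the same length, 14.1% hold these letters on either strand. A pair of copies with any 1 base between, the perfect form of the PPAR and RXR element, was in 17 promoters (0.0508%) and in none of the 6. TATAAA lay on the gene strand 39 bases before that start of Angptl4, overlapping a match on the other strand, and on the other strand before Cd36. These letters, which were searched after the data had been seen, are in 12.9% of all promoters on either strand. CCAAT, added likewise, was before Slc27a1 and Acsl1 and in 34.0% of all promoters. A match describes the sequence and is not a measured site, and the absence of one says only that the letters are not in the window.

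Libraries HFB 6 and CTL 14, and to a smaller extent HFB 5, stood apart from the rest before any comparison of diets. Of the 9382 genes tested, 3214 lay over 2-fold from the median of the remaining libraries in HFB 6, 2350 in CTL 14 and 1017 in HFB 5. The number was 123 to 540 in the 9 other libraries, lowest in CTL 7 and highest in HFB 1. The first principal component of the log2 CPM of these genes held 57.5% of the variance, with loadings of 0.712 for HFB 6, 0.480 for CTL 14 and 0.199 for HFB 5. All other loadings lay between -0.220 and -0.116. Both diets are therefore represented among the libraries that stand apart, 2 of HFB and 1 of CTL, and the differences between diets of the 9 genes and of the ratios between them are given with and without them. Differences of all other genes are given over the 12 libraries only.

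No gene of the table passed an adjusted p of 0.05 between the diets with edgeR's quasi-likelihood test (0% of 9382 genes called, smallest adjusted p 0.999), and none of the 9 genes did. At an unadjusted p under 0.05 edgeR called 220 genes (2.34%, 122 higher and 98 lower in HFB), again with 0 of the 9 among them. With 1 library left out, that number lay between 135 (without HFB 5) and 587 (without CTL 14). DESeq2 and limma also called 0 genes past the adjusted threshold, and 320 and 613 at an unadjusted p under 0.05. The HFB and CTL values did not overlap for 10 genes of the table (0.107%), and they overlapped for each of the 9. Below, levels are CPM scaled by TMM, a difference is log2 HFB minus CTL with its SE and 95% interval, and each group has n = 6. Gene lengths were not used, so levels are compared between libraries and not between genes. In these bulk samples, fewer cells of a type and less RNA per cell cannot be told apart.

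**Figure D1:**
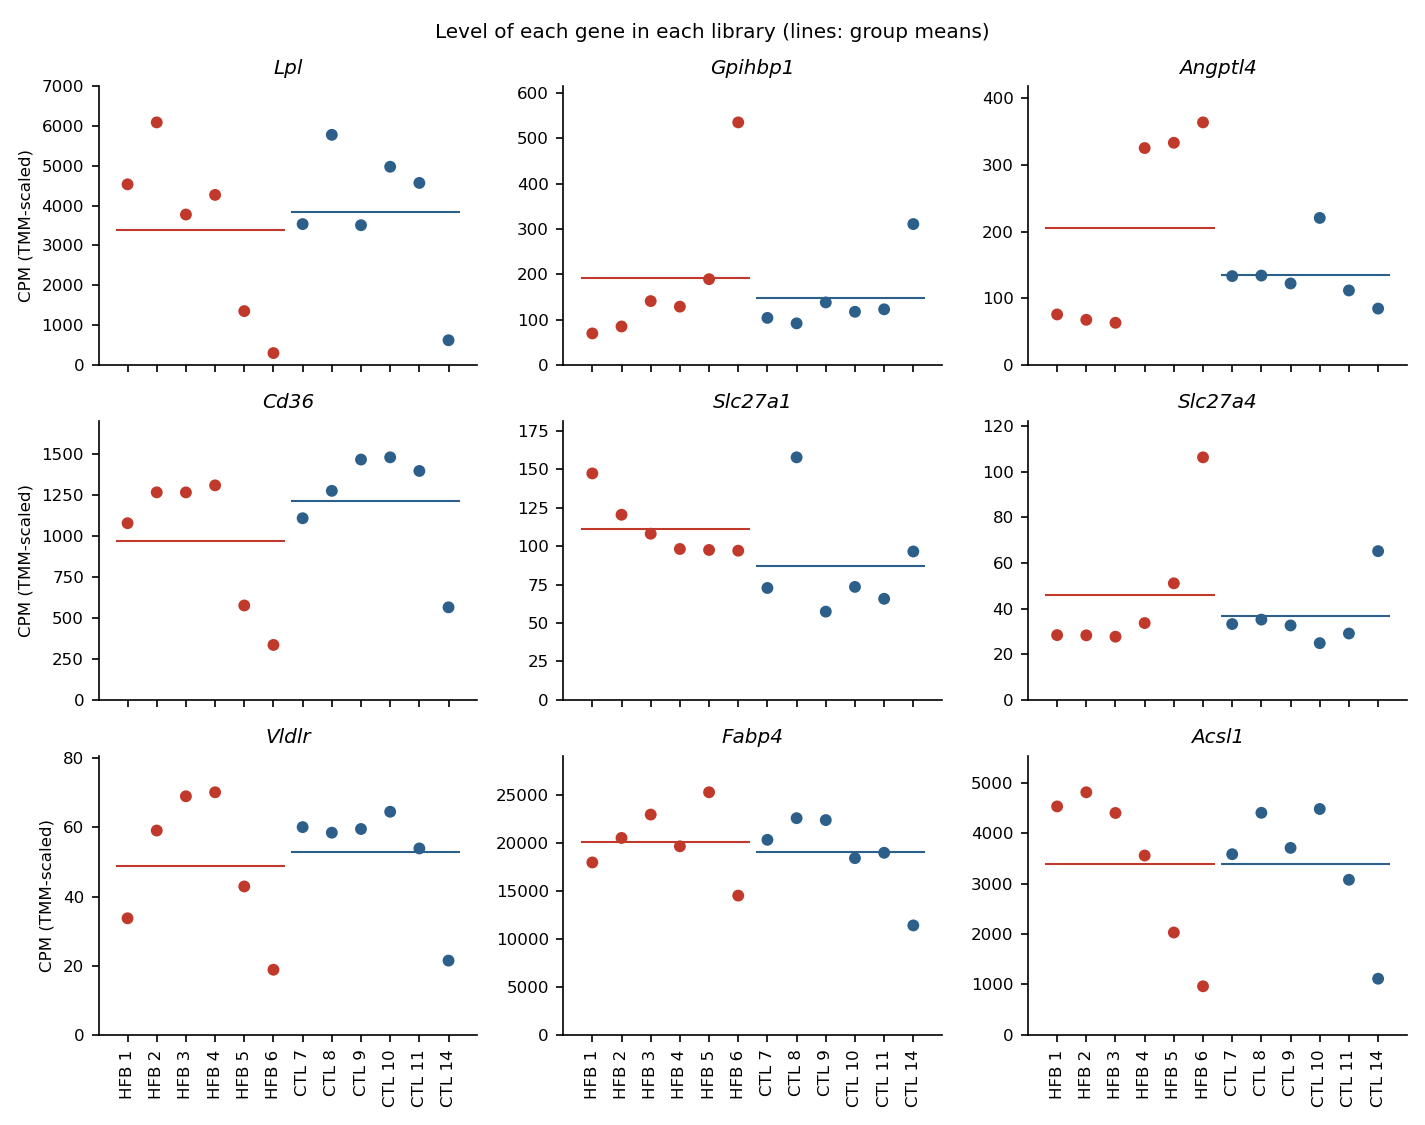
Level of each of the 9 genes in each of the 12 libraries, in CPM on a linear axis, with HFB libraries in red, CTL libraries in blue and lines at the group means. HFB 6, CTL 14 and HFB 5 are the lowest for Lpl, Cd36 and Acsl1 and the highest for Gpihbp1 and Slc27a4, and Angptl4 is highest in HFB 4, HFB 5 and HFB 6 (325 to 364 CPM).

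Lpl encodes lipoprotein lipase itself. Its level in the HFB libraries had a lowest value of 298 CPM, a median of 4022 and a highest value of 6088. Among CTL libraries the lowest was 620.2 CPM, the median 4052 and the highest 5776. The low values belong to HFB 6 (298), CTL 14 (620.2) and HFB 5 (1352), while the 9 other libraries lay between 3508 and 6088 CPM, so the groups overlapped and the separation ran across the diets. The range within HFB was 20.4-fold. The difference between diets was -0.18 (SE 0.60, interval -1.47 to 1.12, edgeR adjusted p = 0.999), and 3 of 6 HFB libraries lay above the CTL median. The difference turned to 0.064 without HFB 6 alone and was -0.43 without HFB 2 alone, the extremes with 1 library left out. With limma's sample weights it was -0.022. Without HFB 6 and CTL 14 it was -0.16 (SE 0.31), and without HFB 5 as well, a choice made after the data had been seen, it was 0.064 (SE 0.20).

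Gpihbp1 encodes the endothelial protein that binds the lipase and carries it to the capillary lumen. Levels in HFB ran from 69.5 CPM through a median of 135 to 535, and in CTL from 91.7 through 119.9 to 311. The order was opposite to that of Lpl, with HFB 6 (535), CTL 14 (311) and HFB 5 (189) highest and the 9 other libraries between 69.5 and 141 CPM. The groups overlapped, and 4 of 6 HFB libraries lay above the CTL median. Between diets the difference was 0.38 (SE 0.47, interval -0.65 to 1.40, edgeR adjusted p = 0.999). It fell below 0 without HFB 6 alone (-0.26), and was 0.10 without HFB 6 and CTL 14 and -0.11 without HFB 5 as well. It was also below 0 with limma's sample weights (-0.060) and with the skeletal muscle score as a covariate (-0.036).

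**Figure D2:**
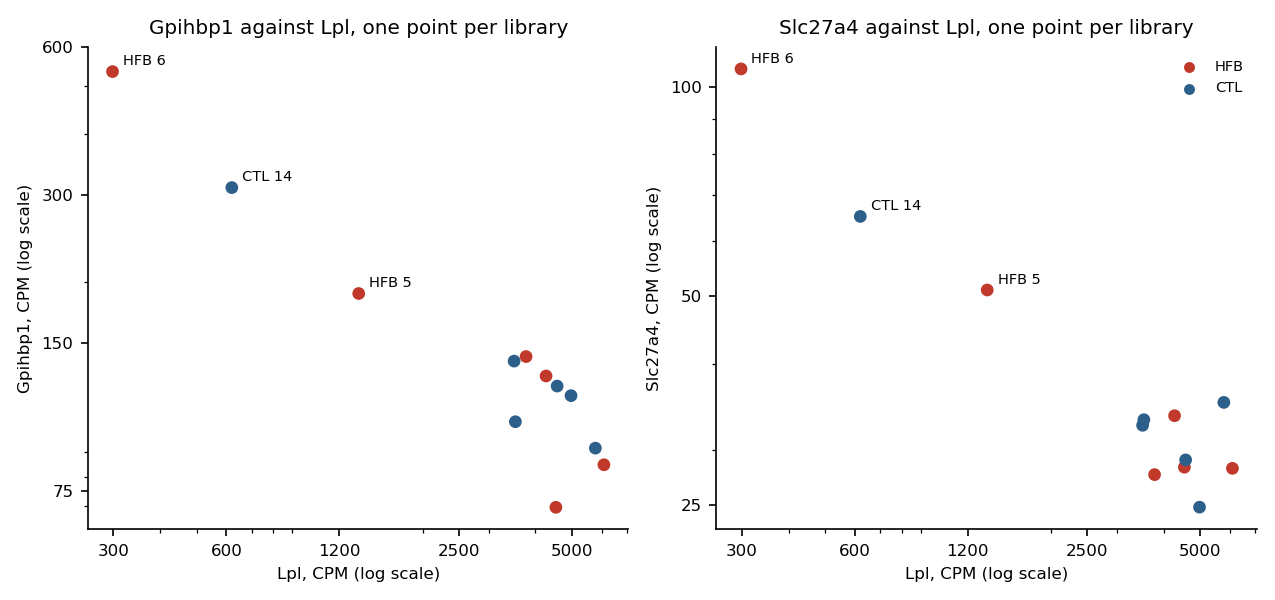
Gpihbp1 (left) and Slc27a4 (right) against Lpl, both in CPM on log axes, with 1 point per library, HFB in red and CTL in blue. HFB 6, CTL 14 and HFB 5 lie at low Lpl (298, 620.2 and 1352 CPM) and high Gpihbp1 (535, 311 and 189 CPM), apart from the 9 other libraries.

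Angptl4 encodes a secreted inhibitor of lipoprotein lipase that rises with fasting and with PPAR agonists. In HFB libraries the lowest level was 63.2 CPM, the median 200.4 and the highest 364, and in CTL libraries the lowest was 84.5, the median 128 and the highest 220.4. HFB was split, with HFB 4 at 325, HFB 5 at 333 and HFB 6 at 364 CPM, all above every CTL library, and HFB 1 at 75.7, HFB 2 at 67.7 and HFB 3 at 63.2, all below every CTL library. No HFB library lay inside the CTL range, and the HFB median falls between these sets, where no HFB library lies. The difference of the means was 0.61 (SE 0.47, interval -0.40 to 1.62, edgeR adjusted p = 0.999). It was 0.37 without HFB 6 alone, 0.27 without HFB 6 and CTL 14 and -0.11 without HFB 5 as well, and -0.38 with limma's sample weights. Unlike Lpl and Gpihbp1, CTL 14 was not at the same end as HFB 6, since it had the lowest Angptl4 of the CTL libraries (84.5 CPM).

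The ratio of inhibitor to enzyme within a library does not depend on how that library was scaled. The log2 ratio of Angptl4 to Lpl counts (2 added to each) was 0.29 in HFB 6, -2.02 in HFB 5 and -2.86 in CTL 14, and between -6.47 and -3.71 in the 9 other libraries. Its mean was -3.95 ± 2.67 (SD, n = 6) in HFB and -4.61 ± 0.93 in CTL, a difference of 0.66 (two-sided exact permutation test, p = 0.595, adjusted p = 0.671 over 3 ratios). Leaving out HFB 6 turned it to -0.18, and it was 0.17 without HFB 6 and CTL 14 and -0.53 without HFB 5 as well. The smallest p this test can give is 0.0022.

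For Gpihbp1 to Lpl the log2 ratio was 0.84 in HFB 6, -0.996 in CTL 14 and -2.83 in HFB 5, so that Gpihbp1 had more counts than Lpl in HFB 6 only. The 9 other libraries lay between -6.15 and -4.66. Means were -3.99 ± 2.65 in HFB and -4.55 ± 1.79 in CTL (SD, n = 6), and the difference of 0.56 gave an exact permutation p of 0.671 (adjusted p = 0.671). It turned to -0.40 without HFB 6, and was 0.31 without HFB 6 and CTL 14 and -0.22 without HFB 5 as well.

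Cd36 encodes the scavenger receptor that takes up long-chain fatty acids at the plasma membrane of adipocytes, muscle and capillary endothelium. HFB levels had a lowest value of 336 CPM, a median of 1174 and a highest of 1311, and CTL levels 566, 1339 and 1483 CPM. HFB 6 (336), CTL 14 (566) and HFB 5 (577) were again low, with the 9 other libraries between 1080.0 and 1483 CPM. The groups overlapped, although none of the HFB libraries lay above the CTL median. The difference of -0.32 (SE 0.33, interval -1.04 to 0.39) did not pass the test (edgeR adjusted p = 0.999). It was -0.14 without HFB 6 alone and -0.46 without CTL 14 alone, the extremes with 1 library left out, -0.29 without HFB 6 and CTL 14, and -0.13 without HFB 5 as well.

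The Slc27 genes encode transport proteins with acyl-CoA synthetase activity. Slc27a1, typical of muscle and fat, had levels of 97.0, 103 and 147 CPM in HFB and 57.4, 73.1 and 158 CPM in CTL (lowest, median and highest). Every HFB library (6 of 6) lay above the CTL median, and the overlap came from CTL 8 (158), the highest of all libraries. HFB 6 (97.0), HFB 5 (97.5) and CTL 14 (96.5) did not stand apart for this gene. The difference was 0.35 (SE 0.23, interval -0.14 to 0.84, edgeR adjusted p = 0.999), with the smallest unadjusted p of the 9 genes. It was 0.42 without HFB 6 and CTL 14 and 0.47 without HFB 5 as well. Without CTL 8 it was 0.61 (SE 0.16, edgeR adjusted p = 0.9998), one of 271 genes with an unadjusted p under 0.05 in that fit. The lowest HFB library, at 97.0 CPM, then lay just above CTL 14 at 96.5. As CTL 8 had the highest level, leaving it out raises the difference by construction. How many genes of the table do not overlap without CTL 8 was not counted. With limma's sample weights the difference was 0.56 (limma adjusted p = 0.719), one of 613 genes with an unadjusted p under 0.05. Over the 22 alternatives it lay between 0.26 (without HFB 1) and 0.61, and the adjusted p was never under 0.684 for any of the 9 genes.

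Slc27a4, the related protein best known from intestine and skin, ran from 27.7 CPM through a median of 31.0 to 106 in HFB, and from 24.9 through 32.9 to 65.2 in CTL. Its order was that of Gpihbp1 at the top, with HFB 6 (106), CTL 14 (65.2) and HFB 5 (51.1) above the 9 other libraries at 24.9 to 35.2 CPM. The groups overlapped. A difference of 0.32 (SE 0.36, interval -0.46 to 1.10, edgeR adjusted p = 0.999) became -0.12 without HFB 6, 0.13 without HFB 6 and CTL 14, and -0.068 without HFB 5 as well. It was 0.59 without CTL 14 alone, -0.010 with limma's sample weights and 0.13 with the skeletal muscle score as a covariate. The log2 ratio of Slc27a4 to Slc27a1 was -1.44 ± 0.91 in HFB and -1.22 ± 0.56 in CTL (SD, n = 6), a difference of -0.22 (two-sided exact permutation p = 0.617, adjusted p = 0.671). This difference was -0.54 without HFB 6 and -0.044 without HFB 1, the extremes with 1 library left out, -0.41 without HFB 6 and CTL 14, and -0.62 without HFB 5 as well (exact permutation p = 0.0952, adjusted p = 0.286). The ratio was highest in HFB 6 (0.13), the only library with more Slc27a4 than Slc27a1 counts, and lowest in HFB 1 (-2.34).

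Vldlr encodes the very low density lipoprotein receptor, which binds the particles and can bring lipid into adipocytes. Counts were low, from 47 to 196 in a library. Levels were 18.8, 51.0 and 70.2 CPM in HFB and 21.5, 59.0 and 64.6 CPM in CTL (lowest, median and highest). HFB 6 (18.8) and CTL 14 (21.5) were the lowest, HFB 1 (33.7) and HFB 5 (42.9) came next, and the groups overlapped. Between diets the difference was -0.11 (SE 0.32, interval -0.80 to 0.58, edgeR adjusted p = 0.999), and it was 0.055 without HFB 6, -0.11 without HFB 6 and CTL 14 and -0.030 without HFB 5 as well.

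Inside the cell, Fabp4 encodes the fatty acid binding protein of adipocytes and macrophages. It alone took between 1.29% and 2.37% of all counts of a library, the least in CTL 14 and the most in HFB 5. Levels were 14498, 20065 and 25255 CPM in HFB and 11394, 19633 and 22560.5 CPM in CTL (lowest, median and highest). CTL 14 (11394) and HFB 6 (14498) were the lowest, but HFB 5 was the highest of all libraries (25255), where Lpl, Cd36 and Acsl1 were low. The groups overlapped, and the difference was 0.083 (SE 0.24, interval -0.43 to 0.60, edgeR adjusted p = 0.999). It was 0.053 without HFB 6 and CTL 14, and its sign turned without CTL 14 alone (-0.018) and without HFB 5, HFB 6 and CTL 14 (-0.018).

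Acsl1 encodes the main long-chain acyl-CoA synthetase of adipocytes, which activates fatty acids for triglyceride synthesis and oxidation. In HFB it ran from 963 CPM through a median of 3977 to 4809, and in CTL from 1113 through 3644 to 4477. HFB 6 (963), CTL 14 (1113) and HFB 5 (2029) were the lowest, with the 9 other libraries between 3074 and 4809 CPM, and the groups overlapped. The difference was -0.0051 (SE 0.40, interval -0.86 to 0.85, edgeR adjusted p = 0.999). It was 0.0079 without HFB 6 and CTL 14 and 0.17 without HFB 5 as well.

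**Figure D3:**
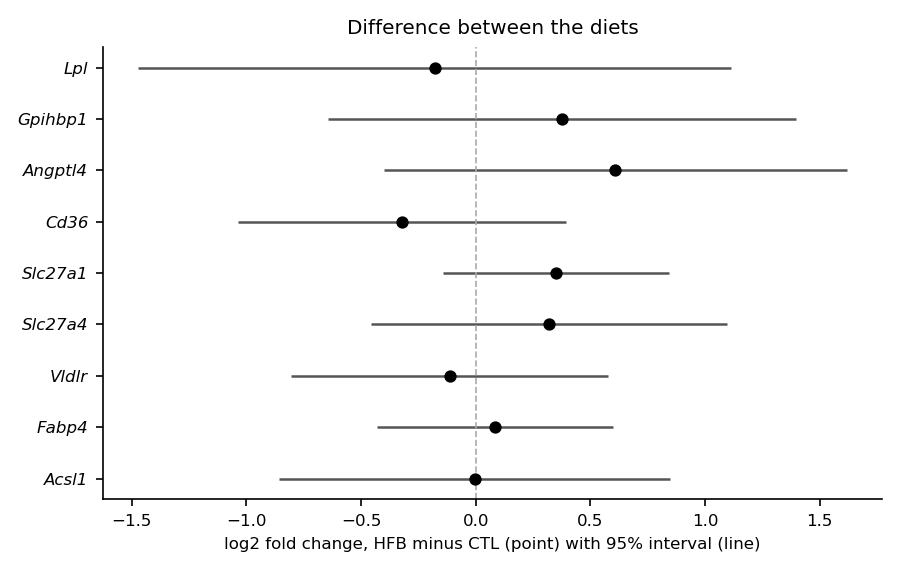
Difference between the diets for each of the 9 genes, as the log2 fold change of HFB minus CTL (points) with its 95% interval (lines). Every interval includes 0, and the intervals of Lpl (-1.47 to 1.12), Gpihbp1 (-0.65 to 1.40) and Angptl4 (-0.40 to 1.62) are the widest.

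Of the 9 differences 5 were above 0 and 4 below, with a median of 0.083, against a median of 0.00018 over all 9382 genes. The spread between libraries of a group was wider for most of these genes than for a typical gene. The biological coefficient of variation was 0.694 for Lpl, 0.563 for Gpihbp1 and 0.556 for Angptl4, against a median of 0.286 over all genes. Fabp4 (0.259) was below that median and Slc27a1 (0.292) close to it. These values are over all 12 libraries. Without HFB 6 and CTL 14 the SE of the difference fell from 0.60 to 0.31 for Lpl and from 0.47 to 0.23 for Gpihbp1. For Angptl4 it stayed near its value, at 0.46 against 0.47. Together the 9 genes took from 1.61% to 3.16% of all counts in HFB libraries (median 2.95%) and from 1.61% to 3.40% in CTL libraries (median 3.06%), with HFB 6 and CTL 14 lowest.

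Markers of cell types moved with these patterns. All 8 adipocyte markers were counted, Adipoq being the most abundant (mean 5448 CPM) and none at 0. Their summed level was 9983 CPM in HFB 6 and 6739 CPM in CTL 14, against 17525 in HFB 5, 14247 in HFB 1, 16030 in HFB 2, 16582 in HFB 3 and 17711 in HFB 4. The other CTL libraries had 15767 (CTL 7), 17892 (CTL 8), 19064 (CTL 9), 15729 (CTL 10) and 16204 CPM (CTL 11). The adipocyte sum was thus low in 2 of the 3 libraries with low Lpl, and HFB 5 had low Lpl, Cd36 and Acsl1 with an adipocyte sum inside the range of the others.

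Endothelial markers were high where adipocyte markers were low. Of 9 listed, 8 were analysed, Egfl7 was the most abundant (mean 106 CPM) and Cldn5 was at 0 in every library. Their sum was 969 CPM in HFB 6 and 907 CPM in CTL 14, against 301 in HFB 5, 285 in HFB 1, 249.8 in HFB 2, 321 in HFB 3, 358 in HFB 4, 274 in CTL 7, 292 in CTL 8, 382 in CTL 9, 253 in CTL 10 and 368 in CTL 11. Gpihbp1, itself an endothelial gene, was high in the same pair of libraries. It was also high in HFB 5 (189 CPM, against 69.5 to 141 in the 9 other libraries), where the endothelial sum (301) was not. Over all 12 libraries Gpihbp1 and the mean log2 CPM of these markers had r = 0.766 (permutation p = 0.00842, adjusted p = 0.0558 over 45 relations). Without the 2 libraries farthest from the median of that mean, r was 0.207. Single markers differed, since Pecam1 was 256 CPM in HFB 6 and 240.2 in CTL 14 and 27.5 to 60.7 in all others, while Cdh5 was lowest in HFB 6 (2.81) and HFB 5 (5.42).

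Lymphoid markers (7 of 8 listed were analysed, Cd79b the most abundant at a mean of 47.2 CPM, none at 0 throughout) summed to 1076 CPM in HFB 6 and 1006 CPM in CTL 14. HFB 1 had 202, HFB 2 84.8, CTL 9 43.0, CTL 7 23.7, CTL 10 23.4, HFB 3 17.2, HFB 5 16.6, CTL 8 8.70, HFB 4 6.09 and CTL 11 4.21 CPM. HFB 6 and CTL 14 thus combined a low adipocyte sum with high endothelial and lymphoid sums, and HFB 5 had none of these. The part of these markers in the levels of Lpl, Gpihbp1, Cd36, Slc27a4, Vldlr, Fabp4 and Acsl1 was not tested.

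**Figure D4:**
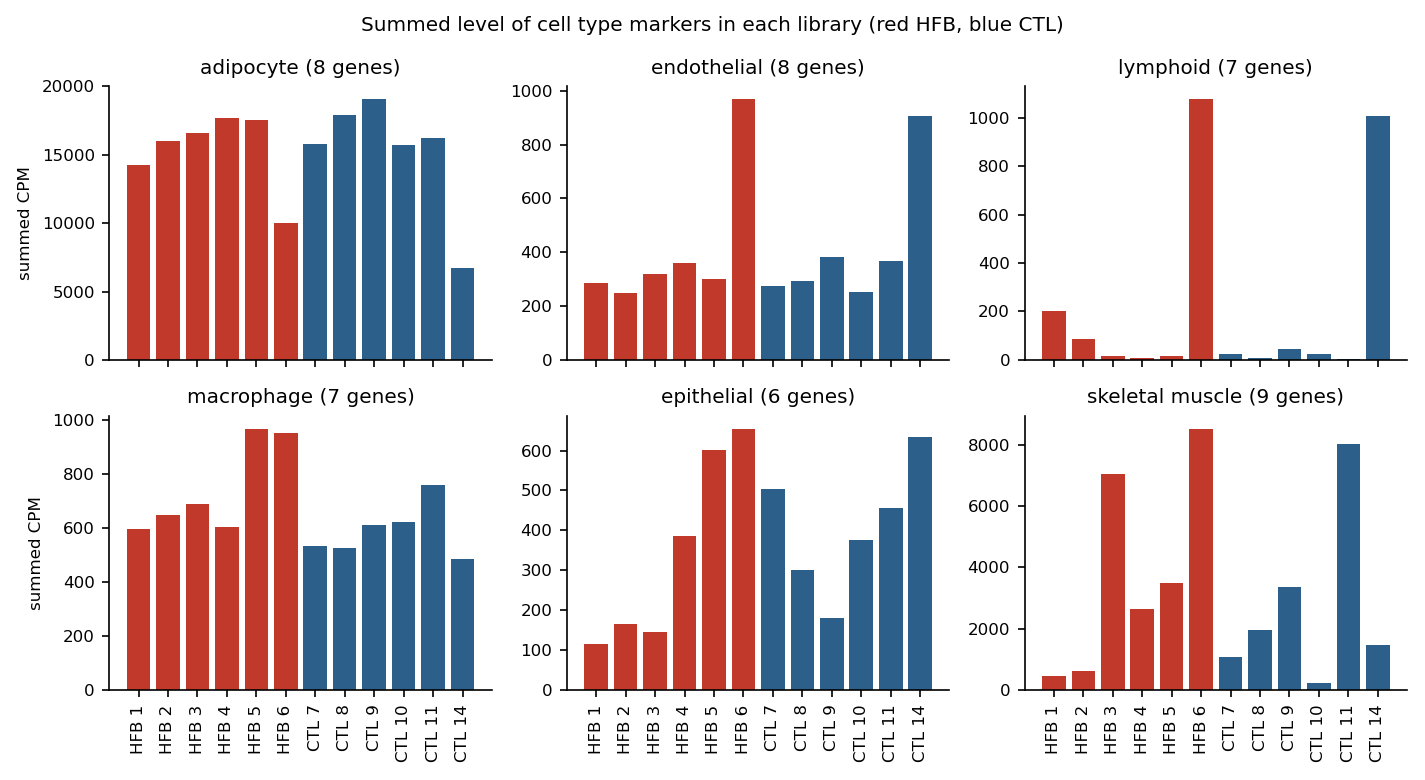
Summed CPM of the markers of 6 cell types in each library, HFB in red and CTL in blue, on linear axes that start at 0. HFB 6 and CTL 14 have the lowest adipocyte sums (9983 and 6739 CPM) and the highest endothelial (969 and 907) and lymphoid sums (1076 and 1006).

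Epithelial markers (6 of 7 listed were analysed, Krt8 the most abundant, none at 0) were highest in HFB 6 (654 CPM), CTL 14 (635) and HFB 5 (601), the libraries with the lowest Lpl. CTL 7 followed with 504, CTL 11 with 456, HFB 4 with 386, CTL 10 with 376, CTL 8 with 299.6, CTL 9 with 180.4, HFB 2 with 166, HFB 3 with 144 and HFB 1 with 114 CPM. HFB 1, HFB 2 and HFB 3 thus had both the lowest epithelial sums and the lowest Angptl4. CTL 14 went the other way, with a high epithelial sum (635 CPM) and the lowest Angptl4 of the CTL libraries (84.5 CPM). Among the libraries other than HFB 5, HFB 6 and CTL 14, Angptl4 and the epithelial score, the mean log2 CPM of the markers, had r = 0.680 (exact permutation p = 0.0441, adjusted p = 0.482 over 45 relations). The rank correlation was rho = 0.633 (exact permutation p = 0.076, adjusted p = 0.428), and r was 0.516 without the 2 libraries farthest from the median score. Over all 12 libraries r was 0.628 (permutation p = 0.0302, adjusted p = 0.0802) and rho was 0.594 (permutation p = 0.0449, adjusted p = 0.184). The part of epithelial markers in the levels of the 9 genes was not tested.

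Macrophage markers (7 of 7, C1qa the most abundant, none at 0) ranged from 595 to 966 CPM in HFB and from 485 to 758 in CTL, highest in HFB 5 and HFB 6 (952) and lowest in CTL 14. Of these 7, only C1qb had an unadjusted p under 0.05 (0.59, SE 0.20, higher in HFB, edgeR adjusted p = 0.999), against 2.34% of all genes tested. Skeletal muscle markers (9 of 9, Acta1 the most abundant, none at 0) ranged from 445 to 8524 and from 230.4 to 8018 CPM, highest in HFB 6, CTL 11 and HFB 3 (7051) and not high in CTL 14 (1467). Red blood cell genes (Hbb the most abundant, none at 0) ranged from 9265 to 82576 CPM in HFB and from 7984 to 51383 in CTL. Their median difference was 0.96, with 0 of 4 at an unadjusted p under 0.05. All 9 skeletal muscle markers were higher in HFB (median 0.42), as were the 3 lymphoid markers among the genes tested (median 0.34). All 6 epithelial markers were lower (median -0.19). None of these markers had an unadjusted p under 0.05. Adipocyte, endothelial, macrophage and brown fat markers went both ways. Brown fat markers (4 of 5 listed were analysed, Cidea the most abundant, none at 0) ranged from 82.2 to 468 and from 84.2 to 478 CPM and were lowest in HFB 6 and CTL 14.

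Since HFB 6, CTL 14 and HFB 5 form a separate set for 5 of the genes (Lpl, Gpihbp1, Cd36, Slc27a4 and Acsl1), r with marker scores is given mainly for the 9 other libraries. Among them, a choice made after the data had been seen, the closest relation was that of Fabp4 with the adipocyte score (r = 0.754, exact permutation p = 0.0105, adjusted p = 0.471 over 45 relations; rho = 0.783, exact permutation p = 0.0172, adjusted p = 0.323). Without the 2 libraries farthest from the median score r was 0.672. None of the 45 relations passed the adjusted threshold in these libraries. Over all 12 libraries 2 relations passed it by r, and r fell without the 2 libraries farthest from the median score. They were Fabp4 with the adipocyte score (r = 0.915, permutation p = 0.00025, adjusted p = 0.0112; r = 0.588 without these 2; rho = 0.797, permutation adjusted p = 0.0646) and Vldlr with the adipocyte score (r = 0.9001, permutation p = 0.00197, adjusted p = 0.0443; r = 0.526 without these 2; rho = 0.538, permutation adjusted p = 0.256). By rank over all 12 libraries 1 relation passed it, Acsl1 falling as the epithelial score rose (rho = -0.874, permutation p = 0.00037, adjusted p = 0.0166), while r was -0.689 (permutation p = 0.014, adjusted p = 0.0558) and -0.703 without the 2 libraries farthest from the median score. In the 9 other libraries rho was -0.717 (exact permutation p = 0.0369, adjusted p = 0.323) and r was -0.604 (exact permutation p = 0.0856, adjusted p = 0.482).

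The genes whose log2 CPM followed each pattern most closely over the 12 libraries were named by Pearson's r, as a measure of likeness with no test. For Lpl these were Mrpl51 (r = 0.987), a protein of the mitochondrial ribosome, Dbt (0.985), a subunit of the branched-chain keto acid dehydrogenase, and Pik3cb (0.983), a catalytic subunit of phosphoinositide kinase. The pattern was widely shared, since 660 genes had r above 0.9 with Lpl and 568 below -0.9, together 13.1% of the genes tested. Mrpl51 had 15.6 CPM in HFB 6, 23.6 in CTL 14 and 32.9 in HFB 5, against 48.7 to 59.5 in the 9 other libraries. For Gpihbp1 the closest were Dnajc17 (0.980), Tbc1d17 (0.971) and the forkhead gene Foxs1 (0.970), and for Vldlr Oat (0.963), Septin2 (0.962) and Btbd1 (0.961). These patterns were shared too. With Gpihbp1, 206 genes had r above 0.9 and 207 below -0.9 (4.40% of the genes tested), and with Vldlr 206 and 324 (5.65%).

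Slc27a1 and Angptl4 had few close partners. For Slc27a1 they were Taldo1 (r = 0.836), an enzyme of the pentose phosphate pathway, Retsat (0.832), a retinol saturase of adipocytes, and Tlcd3b (0.831), and no gene had r above 0.9. For Angptl4 they were Sult5a1 (0.898), Flot2 (0.878), which encodes flotillin, and Pex11g (0.862), a peroxisomal protein. Retsat had 1333 CPM in HFB 1, 1418 in HFB 2 and 1466 in CTL 8, against 566 to 1166 CPM in the remaining libraries.

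Other genes of the pathway were read from 5 lists, of which no gene passed the adjusted threshold. Among regulators of the lipase and other lipases, 5 of 14 listed passed the filter on low counts, 0 had an unadjusted p under 0.05, and the median difference was -0.084. Apoe, a ligand of lipoprotein receptors, had a difference of 0.22 (SE 0.54), Furin, a protease that cleaves the lipase, -0.018 (SE 0.095), the proteoglycan Sdc1 -0.084 (SE 0.31), and Sel1l, needed for export of the lipase, -0.24 (SE 0.26). Apoe was 4061 CPM in HFB 6 and 2821 CPM in CTL 14, and no more than 1169 CPM in the others.

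Of 18 listed genes of fatty acid binding and transport 9 passed the filter, 0 with an unadjusted p under 0.05, with a median of -0.035. The difference was -0.22 for Cav1 (SE 0.29), -0.29 for Cav2 (SE 0.44) and -0.26 for Cavin1 (SE 0.61), which build the caveolae of adipocytes. For Dbi, which encodes the acyl-CoA binding protein, it was 0.29 (SE 0.23). Cavin1 was 8.02 CPM in HFB 6, 33.1 in CTL 14 and 69.2 in HFB 5, against 149 to 279 in the 9 other libraries, the order seen for Lpl.

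Of 8 other acyl-CoA synthetases 6 passed the filter, with a median of -0.18. Of these 6, 1 had an unadjusted p under 0.05, against 2.34% of all genes tested. This was Acsl3, lower in HFB (-0.55, SE 0.21, edgeR adjusted p = 0.999). It ran from 11.6 to 28.7 CPM in HFB and from 26.1 to 37.9 in CTL, so the groups overlapped. Acss2 (0.14, SE 0.33), Acsl5 (-0.00082, SE 0.14) and Acsl4 (-0.054, SE 0.17) had no unadjusted p under 0.05. Among 9 other lipoprotein receptors 7 passed the filter, 0 with an unadjusted p under 0.05, with a median of -0.076, and the differences were 0.070 for Lrp1 (SE 0.18), -0.076 for Sort1 (SE 0.26) and 0.046 for Sorl1 (SE 0.17).

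Of 14 listed regulators 13 passed the filter, with a median of -0.11. Of these 13, 1 had an unadjusted p under 0.05, against 2.34% of all genes tested. This was Cebpb, a transcription factor of early adipocyte differentiation, higher in HFB (0.55, SE 0.24, edgeR adjusted p = 0.999). It had 80.5 to 193 CPM in HFB and 51.2 to 109.8 in CTL, which overlap. Pparg (-0.11, SE 0.38), the master regulator of adipocytes, Cebpa (0.25, SE 0.64), its partner, and Vegfb (0.058, SE 0.38) did not differ past the test. Pparg was 71.8 CPM in HFB 6, 105 in CTL 14 and 276 in HFB 5, against 326 to 488 in the 9 other libraries. Cebpa was 3.21 CPM in HFB 6 and 17.3 in CTL 14, but 137 in HFB 5, inside the range of the others (127 to 231). HFB 5 thus shared the low Lpl of HFB 6 and CTL 14 but not their low Cebpa, as it did not share their low adipocyte sum.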

How the data were processed

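Read counts per gene, deposited by the authors without normalization, were analysed in 12 libraries (6 HFB, 6 CTL), and groups were taken from the labels. The submitters' processing notes name CASAVA 1.8, bcl2fastq, TopHat, DESeq and the rn4 genome build. The use of strand and the counting program are not given in the sources used here. Of 16511 Entrez identifiers, 16351 matched a symbol in RefSeq's gene table (GRCr8). The chi-square of within-group pairs (30 pairs) was at least 7.10 per degree of freedom, so no library was counted as a copy of another of its group. Pairs of an HFB and a CTL library were not compared in this way.

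Genes kept by filterByExpr (9382) entered edgeR 4.0.16 under R 4.3.3 (TMM, quasi-likelihood test, no covariate, Benjamini-Hochberg over all genes, threshold 0.05). The same steps were tested on simulated data. Alternatives used DESeq2 1.42.0, limma 3.58.1 (voom with sample quality weights), other size factors and filters, marker scores as covariates, and left-out libraries. Log2 CPM had a prior count of 2. Correlations used 100000 resamples, or all permutations under 10 libraries, in Python with scipy 1.17.1. The members and lists were chosen with earlier results of these data known. Genes named beside the members were those of each pathway list with the 4 highest mean CPM or an unadjusted p under 0.05, and the 3 with the highest r with Lpl, Gpihbp1, Slc27a1, Angptl4 or Vldlr. A gene of the lipoprotein receptor list that this rule names is not reported here. The planned ratio with Fabp5 and its closest genes were not analysed here.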

Additional observations from a re-analysis of the deposited data

Results flagged for a closer look

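Of 44 groups of 6 values tested, 22 held a library at an extreme whose gap to the nearest other library, as a share of the group's range, passed Dixon's 95% critical value. Chance flags about 1 in 20 groups, and the values of a library are not independent of each other. CTL 14 gave 10 of these values and HFB 6 gave 5.

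CTL 14 was far below the other CTL libraries for Fabp4 (11394 CPM), Vldlr (21.5 CPM), the summed adipocyte markers (6739 CPM) and the share of counts in the 9 genes (1.61%). It was far above them for Gpihbp1 (311 CPM), Slc27a4 (65.2 CPM), the endothelial markers (907 CPM), the lymphoid markers (1006 CPM) and the log2 ratios of Angptl4 to Lpl (-2.86) and Gpihbp1 to Lpl (-0.996). HFB 6 was far above the other HFB libraries for Gpihbp1 (535 CPM), Slc27a4 (106 CPM), the endothelial markers (969 CPM) and the lymphoid markers (1076 CPM), and far below them for the share of counts in the 9 genes (1.61%).

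Single values of other libraries also stood out within their group. CTL 10 had high Angptl4 (220.4 CPM). The red blood cell markers were high in HFB 2 (82576 CPM) and CTL 9 (51383 CPM), and the brown fat markers in HFB 3 (468 CPM) and CTL 9 (478 CPM). Total counts were low in HFB 1 (2320267) and high in CTL 7 (2944680).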

How the results depend on the processing

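No gene passed the adjusted threshold under any of the 22 alternatives. Of 198 differences of the 9 genes under them, 173 had the sign of the reported value, and the smallest adjusted p was 0.684. Cd36 and Slc27a1 kept their sign throughout. No paired analysis was possible because no number occurs in both diets. The planned ratio with Fabp5 was not run.

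The count at an unadjusted p under 0.05 (220) was 613 with limma, 578 with the adipocyte score as a covariate, 431 without HFB 6 and CTL 14, 509 without HFB 5 as well, and 135 to 587 with each library left out (135 without HFB 5, 137 without CTL 11, 141 without CTL 7 or CTL 10, 378 without HFB 1, 389 without HFB 4, 587 without CTL 14). Without HFB 5, HFB 6 and CTL 14 the log2 difference turned for Lpl (0.064), Fabp4 (-0.018), Gpihbp1 (-0.11), Slc27a4 (-0.068), Angptl4 (-0.11), Acsl1 (0.17) and the ratios of Angptl4 to Lpl (-0.53) and Gpihbp1 to Lpl (-0.22). With limma it turned for Gpihbp1 (-0.060), Slc27a4 (-0.010), Angptl4 (-0.38) and Acsl1 (0.12). The skeletal muscle score as a covariate turned Gpihbp1 (-0.036) and Acsl1 (0.019). Acsl1, at -0.0051, also turned with no filter (0.0025) and without HFB 6 and CTL 14 (0.0079). Apart from left-out libraries, the cause was not tested.

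With each library left out, the range was -0.18 to 0.19 for Acsl1, -0.018 to 0.16 for Fabp4, -0.26 to 0.76 for Gpihbp1, -0.43 to 0.064 for Lpl, -0.12 to 0.59 for Slc27a4 and -0.27 to 0.055 for Vldlr. It was -0.18 to 1.17 for the ratio of Angptl4 to Lpl and -0.40 to 1.27 for Gpihbp1 to Lpl. HFB 6 turned most of these, CTL 14 turned Fabp4, and Acsl1 turned with 6 libraries. The sign was kept for Angptl4 (0.37 to 0.81), Cd36 (-0.46 to -0.14), Slc27a1 (0.26 to 0.61) and the ratio of Slc27a4 to Slc27a1 (-0.54 to -0.044). Of 45 relations with marker scores, 2 had an adjusted p of r under 0.05 over 12 libraries (3 with DESeq2's size factors), 0 without the 2 libraries farthest from the median score and 0 without HFB 5, HFB 6 and CTL 14. By rho the numbers were 1, 1, 1 and 0, the relation being Acsl1 with the epithelial score (permutation adjusted p = 0.0166 over 12 libraries, 0.0481 with DESeq2's size factors, 0.0261 without the 2 farthest).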

Other observations

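Ppp1r3b, which encodes a glycogen-targeting subunit of protein phosphatase, had the pattern most opposite to Angptl4 and was chosen after its values were seen (r = -0.973 over 12 libraries, as a measure of likeness with no test). It was 12.5 CPM in HFB 4, 11.6 in HFB 5 and 10.4 in HFB 6, where Angptl4 was 325 to 364 CPM, and 120.1 in HFB 1, 139 in HFB 2 and 103 in HFB 3, where Angptl4 was 63.2 to 75.7 CPM. CTL libraries lay between both sets for Ppp1r3b, from 31.2 in CTL 10, the CTL library with the most Angptl4, to 58.5 CPM in CTL 14, the one with the least. Ddx21 (r = -0.907) was the next most opposite gene, also chosen after its values were seen.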
